A study of Mus musculus with 10 samples.

Results

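The genes described here are 47 genes of fibroblast identity and of the non-collagen extracellular matrix in the pancreatic tumours of C57BL/6J mice carrying the KPF alleles, which develop pancreatic cancer. They were taken from the deposited gene table by symbol, and all 47 symbols matched 1 row each of its 55487 rows. All 47 had enough counts to be among the 16565 genes tested. Levels are counts scaled to a common library size (CPM), and fold changes on a log2 scale, where a positive value means a higher level in the tumours labelled deleted.

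Polyadenylated RNA of 10 primary pancreatic tumours was sequenced, 5 labelled Grem1-deleted (Grem1∆/∆) and 5 labelled Grem1 wild-type (Grem1wt/wt). The product of Grem1 is secreted and blocks bone morphogenetic proteins. Mice of the labelled-deleted group received tamoxifen at 100 mg/kg body weight once daily for 5 days at the age of 5 weeks, and wild-type mice received peanut oil, so genotype and tamoxifen cannot be told apart. All mice were used at 6 to 12 weeks of age, and the sources used here do not give the promoters and recombinases behind the KPF model and the Grem1 deletion. The labels call the material bulk tumour tissue, while their extraction text speaks of sorted cells. In bulk RNA, fewer cells of a type and less RNA per cell cannot be told apart. The targeted gene did not follow the labels: Grem1 had 47.6, 110.1, 12.6, 6.83 and 23.7 CPM in labelled-deleted tumours 1 to 5, against 15.7, 43.1, 23.0, 3.97 and 9.48 CPM in wild-type tumours 1 to 5. The groups overlapped and the labelled-deleted tumours were not the lower ones, at a log2 fold change of 1.08 (SE 0.79) (edgeR adjusted p = 0.761). Without labelled-deleted tumours 1 and 2, its highest, the log2 fold change was -0.40 (SE 0.71). The groups are therefore named here by their labels. The labels do not say which exons were to be removed, and a count over the whole gene cannot show it.

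Fibroblasts build the connective tissue scaffold, or stroma, that surrounds the epithelial cells of pancreatic tumours. They secrete small leucine-rich proteoglycans, which bind collagen fibrils and set their spacing, and the fibrillins, elastin and fibulins of elastic fibres. Lysyl oxidases crosslink collagen and elastin outside the cell. Some latent TGF-beta binding proteins, such as Ltbp1, tether the growth factor TGF-beta to the microfibrils. Several of the genes are not particular to fibroblasts: vimentin is also made by leukocytes, endothelial cells and tumour cells with mesenchymal features, fibronectin and Sparc by many cells, and Rgs5, Cspg4 and desmin mark pericytes and muscle cells.

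Libraries held between 10159891 and 18571519 estimated counts. One library, labelled-deleted tumour 1, lay far from the rest on the first principal component of all tested genes, at -126 against -12.3 to 38.0, and values without it are given below beside those over all 10 tumours. The 6 fibroblast markers Pdgfra, Pdgfrb, Col1a1, Col1a2, Col3a1 and Col6a1 were present in every tumour, with a summed level of 9092 to 27633 CPM in labelled-deleted tumours and 15304 to 27756 CPM in wild-type tumours. Exons of 20 of the 47 genes overlap exons of another gene. Labelled-deleted tumour 2 held 1804 CPM of intestinal epithelial markers against 34.3 to 122 CPM elsewhere, on a list of which 1 of 5 genes was tested.

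To compare levels between genes, counts were divided by the exonic length of each gene and scaled to the same total in every tumour (TPM, a level per length). The matrix glycoproteins Sparc, a collagen-binding protein, and Fn1, the adhesive protein fibronectin, had the highest median levels over the 10 tumours, at 2679 TPM and 2183 TPM. Their ranges overlapped, from 1313 to 3725 TPM for Sparc and from 1428 to 2782 TPM for Fn1. The proteoglycan Bgn followed at 936 TPM, then Vim at 743 TPM, the fibulin Fbln2 at 612 TPM and Sparcl1 at 571 TPM. Of the fibroblast transcripts, Lum at 335 TPM, Thy1 at 313 TPM and Dcn at 231 TPM were in the upper part of the order. Pdpn at 130 TPM stood lower, then Dpt at 73.2 TPM, Ly6c1 at 63.7 TPM, Svep1 at 24.6 TPM and Clec3b at 18.2 TPM. Ogn at 9.60 TPM, Fbln5 at 12.0 TPM and Cdh2 at 13.8 TPM had the lowest medians. Within a gene, the spread over tumours was widest for Clec3b, Ogn and Fmod, which went down to 0.178, 0.356 and 1.60 CPM in labelled-deleted tumour 1. Their highest values were 35.3, 30.6 and 57.5 CPM. The spread was narrowest for Fbn1, Ltbp3 and Pdpn, where the highest CPM was 1.45, 1.51 and 1.65 times the lowest.

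**Figure D1:**
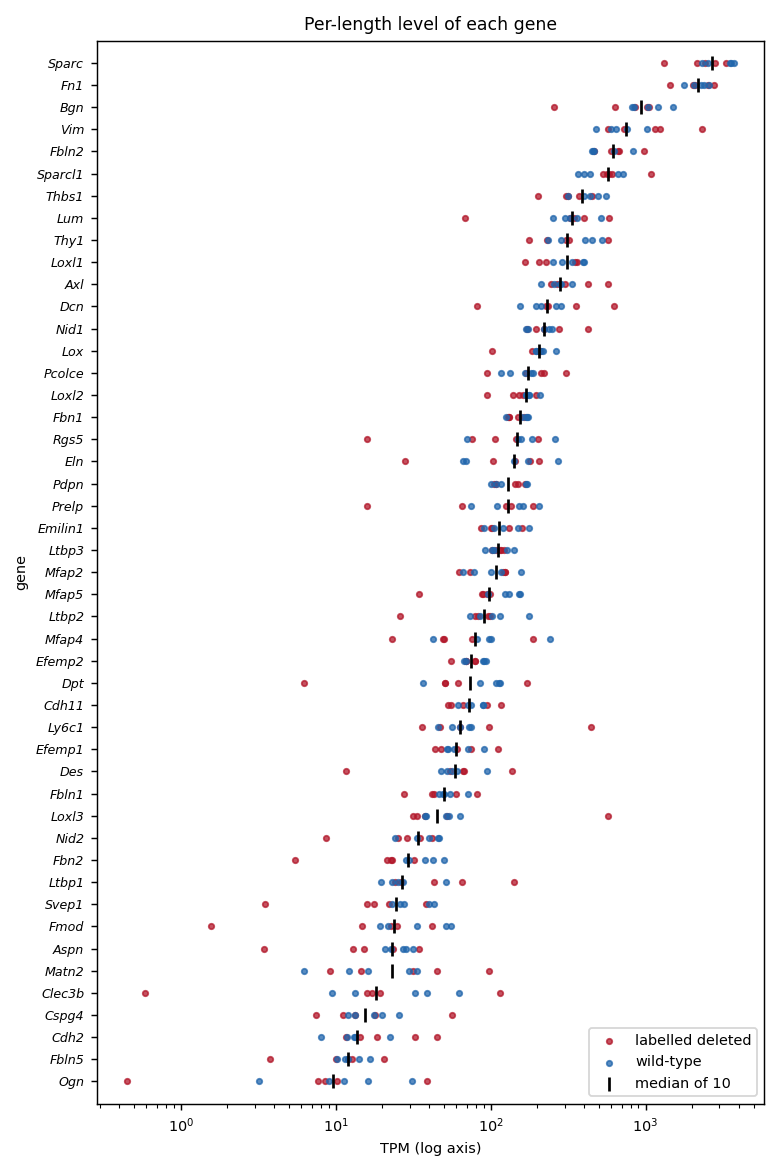
Per-length level of each of the 47 genes in TPM on a log axis, with 1 point per tumour (red labelled deleted, blue wild-type) and a black bar at the median of the 10 tumours. Sparc and Fn1 lie at the top with medians of 2679 TPM and 2183 TPM, and Ogn at the bottom with 9.60 TPM. Labelled-deleted tumour 1 is the red point farthest right for Loxl3 and Ly6c1 and farthest left for Clec3b and Fmod. For Dcn, Dpt and Clec3b the red point farthest right is labelled-deleted tumour 3.

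The comparison asked how these genes differed between tumours labelled Grem1-deleted and wild-type tumours. By edgeR's quasi-likelihood test 0 of the 47 genes reached an adjusted p under 0.05, against a background of 0% of the 16565 genes tested, and their adjusted p-values lay between 0.759 and 0.992. At an unadjusted p under 0.05 there were 2 of the 47 genes, Mfap5 and Fbn2, which is 4.26% against 5.93% of all tested genes. That count moved when 1 tumour was left out, from 1 to 12, given here with its share of the 47 against the share of all tested genes. It was 12 (25.5% against 9.82%) without labelled-deleted tumour 3, 7 (14.9% against 7.2%) without wild-type tumour 2, 6 (12.8% against 8.58%) without labelled-deleted tumour 5 and 4 (8.51% against 5.39%) without labelled-deleted tumour 4. It was 1 (2.13% against 5.45%) without labelled-deleted tumour 2, 1 (2.13% against 3.94%) without wild-type tumour 4 and 1 (2.13% against 3.69%) without wild-type tumour 5. DESeq2 called 0 of the 47 at an adjusted p under 0.05, against 0.0221% of all genes, and limma-voom called 0. At an unadjusted p under 0.05 DESeq2 had 5 (10.6% against 4.77%) and limma-voom 2 (4.26% against 5.35%). The DESeq2 shares of all genes are over the 31660 genes with any count, and that of limma-voom over the 16565 filtered genes. These backgrounds are therefore not alike. The log2 fold change was positive for 16 genes and negative for 31, with a median of -0.15. Over all tested genes it was positive for 55.1%, with a median of 0.027. Without labelled-deleted tumour 1 the 47 genes had a median of -0.13, and leaving out labelled-deleted tumour 2 as well gave -0.022. For Mfap5 alone did the groups not overlap: all 5 labelled-deleted tumours lay below all 5 wild-type tumours, which held for 0.435% of all tested genes. In none of the 47 did all 5 labelled-deleted tumours lie above, which held for 0.495% of all tested genes.

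**Figure D2:**
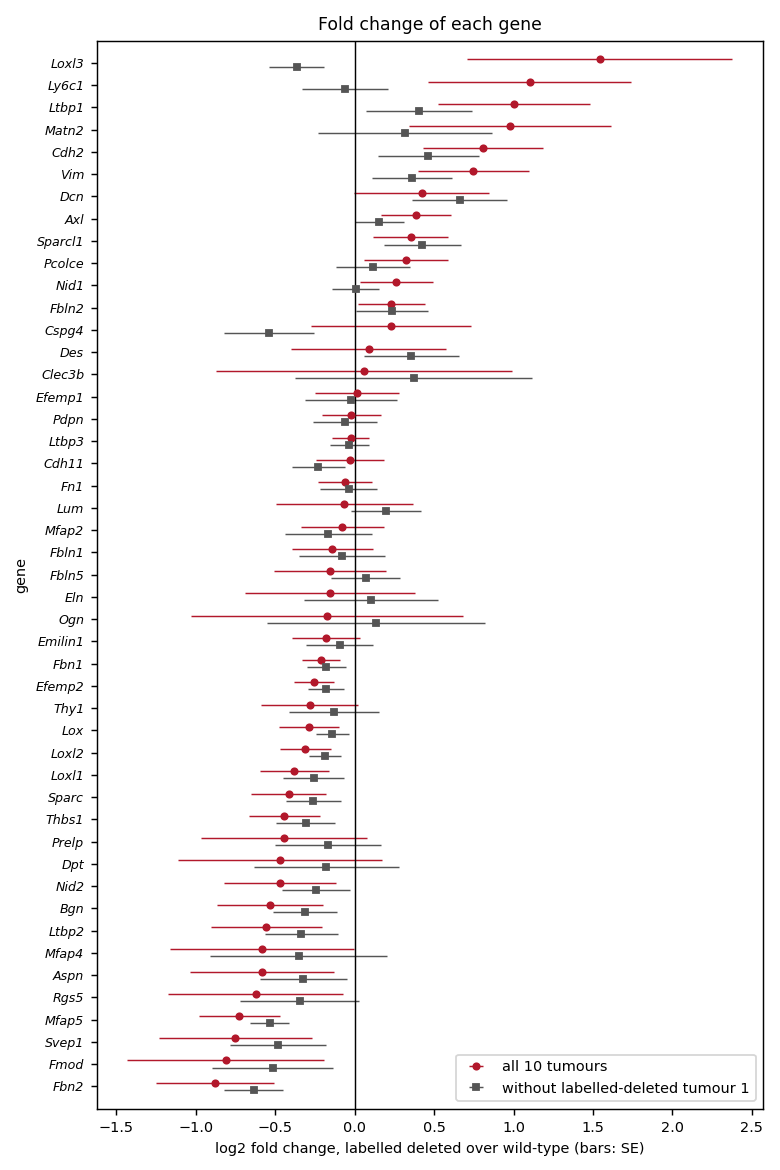
Log2 fold change (labelled deleted over wild-type) of each of the 47 genes with its SE, over all 10 tumours (red) and without labelled-deleted tumour 1 (grey). The values run from -0.88 for Fbn2 to 1.54 for Loxl3, and without labelled-deleted tumour 1 the sign turns for Loxl3, Ly6c1, Cspg4, Efemp1, Lum, Fbln5, Eln and Ogn and stays for the other 39.

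One tumour set much of the spread. Labelled-deleted tumour 1 had the lowest level of 27 of the 47 genes (57.4%) and the highest level of 11 (23.4%). Over all tested genes it was lowest in 29.5% and highest in 27.9%. The genes at their lowest there included all 7 small leucine-rich proteoglycans, and those at their highest included all 4 genes of the filament, cadherin and receptor group. The median of the 47 genes in that tumour lay -1.01 from the wild-type means on the log2 scale, against -0.28 to 0.21 in the other 9 tumours. Between tumours of a group, the median SD of log2 CPM was 0.79 in labelled-deleted tumours and 0.36 in wild-type tumours, and 0.44 in labelled-deleted tumours without tumour 1.

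Several marker lists were at an extreme in this tumour, and others were not. Summed fibroblast markers stood at 9092 CPM in labelled-deleted tumour 1 against 15304 to 27756 CPM in the other 9. Col1a1, Col1a2 and Col3a1 were each at their lowest there, at 1815, 2671 and 2739 CPM. The fibroblast receptors and the collagen gene Col6a1 did not share this. Pdgfra held 227, 160.1, 249.5, 223 and 124 CPM in labelled-deleted tumours 1 to 5. In wild-type tumours 1 to 5 it held 82.5, 137, 118, 124 and 125 CPM. The groups overlapped, and its log2 fold change was 0.75 (SE 0.20) (edgeR adjusted p = 0.759). Without labelled-deleted tumour 1 it was 0.69 (SE 0.21). Over all tumours Pdgfrb and Col6a1 stood at 0.25 and 0.23, and Col1a1, Col1a2 and Col3a1 at -0.39, -0.26 and -0.31. Pdgfrb was at its highest, 353 CPM, in labelled-deleted tumour 1. Col6a1 held 1287 CPM there, inside the 417 to 1466 CPM of the other 9. Epithelial markers summed to 1489.7 CPM there against 2786 to 4991 CPM elsewhere, endothelial markers to 133 CPM against 242 to 576 CPM, smooth muscle and myofibroblast markers to 120.1 CPM against 343 to 804 CPM, and macrophage markers to 811 CPM against 1768 to 3731 CPM. Proliferation genes summed to 859 CPM against 200.2 to 414 CPM. Schwann cell and adipocyte markers, of which 3 and 2 of 5 were tested, summed to 28.1 CPM against 47.5 to 70.3 CPM and to 2.85 CPM against 16.8 to 138 CPM. Mesothelial markers at 221 CPM and acinar markers at 219 CPM lay inside the 135 to 475 CPM and the 22.6 to 14409 CPM of the other 9. All 6 epithelial, 6 endothelial, 5 smooth muscle, 5 macrophage and 5 proliferation genes were tested, and none was at 0 in every tumour. The part of these markers in the results was not tested.

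**Figure D3:**
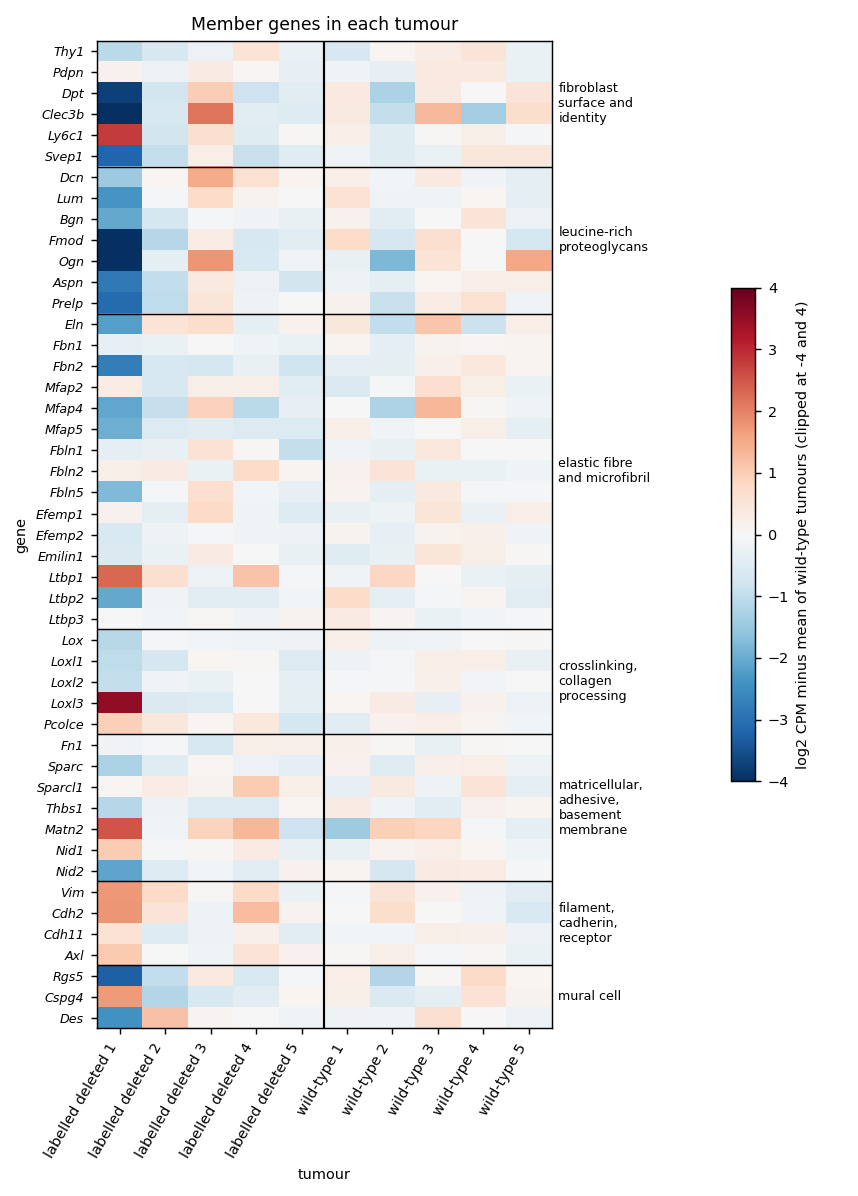
Log2 CPM of the 47 genes (rows, grouped by role) in each tumour (columns) minus the mean of the 5 wild-type tumours, with colours clipped at both ends of the scale shown. The column of labelled-deleted tumour 1 holds the lowest value of 27 genes, in blue, and the highest of 11, in red.

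The 7 small leucine-rich proteoglycans (Dcn, Lum, Bgn, Fmod, Ogn, Aspn and Prelp) are secreted proteins that bind collagen. None passed the test, and 1 had a positive and 6 a negative log2 fold change, with a median of -0.45, which was -0.17 without labelled-deleted tumour 1. Dcn, decorin, which coats collagen fibrils and binds TGF-beta, had 147, 424, 1123, 610.4 and 428 CPM in labelled-deleted tumours 1 to 5, against 483, 369.9, 524, 360.4 and 304 CPM in wild-type tumours 1 to 5. Labelled-deleted tumour 1 was the lowest of all and labelled-deleted tumour 3 the highest. Labelled-deleted tumour 4 also lay above every wild-type tumour, and labelled-deleted tumours 2 and 5 lay within the wild-type range. The log2 fold change of Dcn was 0.42 (SE 0.42) (edgeR adjusted p = 0.807), 0.66 (SE 0.30) without labelled-deleted tumour 1 and -0.032 without labelled-deleted tumour 3. Bgn, biglycan, the closest relative of decorin, had 483, 1226, 1973, 1828 and 1637 CPM in labelled-deleted tumours 1 to 5, against 2292, 1493, 1975, 2856 and 1728 CPM in wild-type tumours 1 to 5. The groups overlapped, with labelled-deleted tumour 1 below the rest, and the log2 fold change was -0.53 (SE 0.34), or -0.31 (SE 0.20) without that tumour. Fmod, fibromodulin, which controls the thickness of collagen fibrils, had 1.60, 15.5, 42.7, 21.9 and 25.8 CPM in labelled-deleted tumours 1 to 5, against 57.5, 21.7, 53.9, 34.6 and 21.3 CPM in wild-type tumours 1 to 5. It was nearly absent from labelled-deleted tumour 1, and its log2 fold change was -0.81 (SE 0.62), or -0.52 (SE 0.38) without that tumour.

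The other 4 proteoglycans overlapped between the groups as well. Lum, lumican, which is best known for the transparency of the cornea, ran from 51.4 to 436 CPM in labelled-deleted tumours and 206 to 396 CPM in wild-type tumours, with a log2 fold change of -0.065 (SE 0.43). Prelp, a proteoglycan also found at basement membranes, ran from 17.6 to 209.8 CPM in labelled-deleted tumours and 81.5 to 231 CPM in wild-type tumours, with -0.45 (SE 0.52). Aspn, asporin, ran from 2.49 to 25.1 CPM in labelled-deleted tumours and 14.8 to 23.3 CPM in wild-type tumours, with -0.59 (SE 0.45). Ogn, osteoglycin, was the least abundant per length and ran from 0.356 to 30.6 CPM in labelled-deleted tumours and 2.46 to 26.7 CPM in wild-type tumours, with labelled-deleted tumour 1 at 4 counts and a log2 fold change of -0.17 (SE 0.86). When labelled-deleted tumour 1 was left out, the log2 fold changes of Lum and Ogn were 0.20 (SE 0.22) and 0.13 (SE 0.68), and those of Prelp and Aspn -0.17 (SE 0.33) and -0.32 (SE 0.27). When labelled-deleted tumour 3 was left out instead, Lum, Ogn, Prelp and Aspn stood at -0.35, -1.14, -0.77 and -0.98. These genes include 3 pairs that lie close together in GRCm38: Dcn and Lum on chromosome 10, 46984 bases apart, Aspn and Ogn on chromosome 13, 40480 bases apart, and Prelp and Fmod on chromosome 1, 115839 bases apart. In each pair both genes were at their lowest in labelled-deleted tumour 1. So were all 7 proteoglycans, and the pairs therefore do not stand apart in this.

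The 250 bases before the annotated start of 5 proteoglycan genes, all lowest in labelled-deleted tumour 1, are shown with those of Vim and Axl, which were highest there, because these genes stood at opposite ends of their ranges in 1 tumour. RefSeq promoter sequences (GRCm38.p6) were at hand for 28 of the 47 genes. The windows are Bgn chrX:73483351-73483600 (plus strand), Fmod chr1:134037004-134037253 (plus strand), Prelp chr1:133921402-133921651 (minus strand), Aspn chr13:49544193-49544442 (plus strand), Ogn chr13:49607765-49608014 (plus strand), Vim chr2:13574061-13574310 (plus strand) and Axl chr7:25788734-25788983 (minus strand). Each is written 5′ to 3′ along the gene. Capitals mark matches on either strand to the TATA box letters TATAAA, to the CCAAT box, to the GC box letters GGGCGG, to the AP-1 site letters TGANTCA and to the TEAD core letters GGAATG.
Bgn: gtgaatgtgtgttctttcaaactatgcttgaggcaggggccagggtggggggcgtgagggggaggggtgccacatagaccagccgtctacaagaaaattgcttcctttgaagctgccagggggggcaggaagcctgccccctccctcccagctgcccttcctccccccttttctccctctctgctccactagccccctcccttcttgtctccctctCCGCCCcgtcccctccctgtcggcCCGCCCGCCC
Fmod: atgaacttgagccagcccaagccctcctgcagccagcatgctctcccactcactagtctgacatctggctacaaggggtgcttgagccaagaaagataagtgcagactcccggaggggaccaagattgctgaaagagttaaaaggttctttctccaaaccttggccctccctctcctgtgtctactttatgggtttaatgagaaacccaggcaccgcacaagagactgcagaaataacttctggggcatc
Prelp: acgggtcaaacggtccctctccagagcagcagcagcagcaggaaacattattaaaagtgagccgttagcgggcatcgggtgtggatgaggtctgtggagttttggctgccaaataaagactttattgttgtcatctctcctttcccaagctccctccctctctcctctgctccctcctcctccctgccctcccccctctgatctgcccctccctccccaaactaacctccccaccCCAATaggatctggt
Aspn: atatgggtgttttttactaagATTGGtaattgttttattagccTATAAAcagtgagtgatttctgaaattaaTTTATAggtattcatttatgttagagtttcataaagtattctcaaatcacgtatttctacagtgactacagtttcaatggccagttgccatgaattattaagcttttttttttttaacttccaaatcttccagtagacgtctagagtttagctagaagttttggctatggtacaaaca
Ogn: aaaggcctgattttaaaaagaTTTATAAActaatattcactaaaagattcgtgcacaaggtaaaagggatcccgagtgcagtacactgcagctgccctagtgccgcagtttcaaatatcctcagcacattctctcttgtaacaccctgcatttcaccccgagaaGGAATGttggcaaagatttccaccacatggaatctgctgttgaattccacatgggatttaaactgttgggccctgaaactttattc
Vim: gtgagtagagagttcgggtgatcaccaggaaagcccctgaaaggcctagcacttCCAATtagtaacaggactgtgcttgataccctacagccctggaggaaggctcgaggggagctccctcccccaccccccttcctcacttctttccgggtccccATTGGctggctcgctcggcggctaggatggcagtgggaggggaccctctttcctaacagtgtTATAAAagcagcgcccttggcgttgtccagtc
Axl: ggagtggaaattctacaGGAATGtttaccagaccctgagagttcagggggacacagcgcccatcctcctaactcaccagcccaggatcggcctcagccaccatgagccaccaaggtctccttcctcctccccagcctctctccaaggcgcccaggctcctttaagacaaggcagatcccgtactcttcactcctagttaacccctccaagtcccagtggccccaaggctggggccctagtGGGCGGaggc

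Over all 32851 promoter windows of this length, TATAAA was found in 12.4%, CCAAT in 33.8%, GGGCGG in 32.7%, TGANTCA in 6.75% and GGAATG in 12.6%. Of the 35 windows of the genes described here, some of which have several starts, 5, 9, 16, 1 and 5 held these letters in the same order. Vim has TATAAA from 32 to 27 bases before the start, on the strand of the gene, and CCAAT on both strands further up. Bgn has 3 matches to GGGCGG on the opposite strand, the last 2 of which overlap, and Axl has 1 on the strand of the gene. The window of Aspn is 30.0% G and C with 2 CpG, and that of Bgn 64.4% with 7, against a median of 52.4% and 6 CpG over all windows. The 2 TATAAA matches of Ogn overlap, on opposite strands. A match is a description of letters, and none of the 5 motifs was found in all 5 proteoglycan windows.

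The 6 genes of fibroblast surface and identity went apart from each other. None passed the test, 2 had a positive and 4 a negative log2 fold change, and the median was -0.15, or -0.10 without labelled-deleted tumour 1. Svep1, a large secreted adhesion protein, had 17.3, 81.1, 191, 84.3 and 111 CPM in labelled-deleted tumours 1 to 5, against 139, 113, 131, 218 and 216 CPM in wild-type tumours 1 to 5. Labelled-deleted tumour 3 lay within the wild-type range and the other 4 lay below its lowest value, and the log2 fold change was -0.75 (SE 0.48), or -0.48 (SE 0.30) without labelled-deleted tumour 1. Exons of another gene on the opposite strand cover 13.9% of its exonic bases, and the sources used here do not say if reads were counted by strand. Ly6c1, a surface protein of some fibroblasts and of endothelial cells, had 229, 19.4, 50.6, 23.3 and 33.7 CPM in labelled-deleted tumours 1 to 5, against 38.8, 23.2, 33.5, 38.0 and 31.6 CPM in wild-type tumours 1 to 5. Labelled-deleted tumour 1 was far above every other tumour, and the log2 fold change of 1.10 (SE 0.64) turned to -0.062 (SE 0.27) without it. Ly6c1 may share reads with the near-identical Ly6c2, at 15.1 CPM in that tumour, so both values are uncertain. How far reads were shared was not measured. Ly6a, also on chromosome 15, was highest in labelled-deleted tumour 1 too, at 713 CPM against 105 to 244 CPM in the other tumours.

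The other 4 varied over all tumours with no clear split by label. Thy1, a surface glycoprotein of fibroblasts, ran from 163 to 504 CPM in labelled-deleted tumours and 220.4 to 492 CPM in wild-type tumours, with a log2 fold change of -0.28 (SE 0.31), or -0.13 (SE 0.28) without labelled-deleted tumour 1. Pdpn, podoplanin, kept within a narrow band of 59.8 to 93.6 CPM in labelled-deleted tumours and 59.4 to 97.8 CPM in wild-type tumours, including labelled-deleted tumour 1 at 83.5 CPM, and had a log2 fold change of -0.021 (SE 0.19), or -0.063 (SE 0.20) without that tumour. All 6 genes overlapped between the groups. Dpt, dermatopontin, a marker of universal fibroblasts in mouse tissues, ran from 3.29 to 91.0 CPM in labelled-deleted tumours and 18.9 to 66.0 CPM in wild-type tumours, with a log2 fold change of -0.47 (SE 0.64), which became -0.18 (SE 0.45) when labelled-deleted tumour 1 was left out. Clec3b, tetranectin, ran from 0.178 to 35.3 CPM in labelled-deleted tumours and 2.93 to 19.6 CPM in wild-type tumours, with 2 counts in labelled-deleted tumour 1, and its log2 fold change was 0.06 (SE 0.93), or 0.37 (SE 0.75) without that tumour. Without labelled-deleted tumour 3, the highest for both, Clec3b stood at -1.29 and Dpt at -1.17. Labelled-deleted tumour 3 had the highest level of 9 of the 47 genes, among them Dpt, Clec3b, Dcn, Lum and Ogn. This is 19.1%, against 12.6% of all tested genes. Wild-type tumours 4 and 3 were highest in 9 and 8 of the 47, and labelled-deleted tumour 1 in 11. Labelled-deleted tumour 3 also held the highest sum of adipocyte markers, 138 CPM against at most 83.3 CPM in the other tumours. The part of these markers in the values above was not tested.

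Among the 15 genes of elastic fibres and microfibrils 3 had a positive and 12 a negative log2 fold change, with a median of -0.16, or -0.093 without labelled-deleted tumour 1, and none past the test. The microfibril-associated glycoprotein Mfap5 had 38.17, 101, 109, 100.2 and 100.3 CPM in labelled-deleted tumours 1 to 5, against 171, 133, 149, 173 and 115 CPM in wild-type tumours 1 to 5. Every labelled-deleted tumour lay below every wild-type tumour, and the 4 other than tumour 1 lay close together between 100.2 and 109 CPM. Means were 89.7 ± 29.0 CPM in labelled-deleted tumours and 148 ± 25.0 CPM in wild-type tumours (SD, n = 5 each), a log2 fold change of -0.73 (SE 0.25) that did not pass the threshold (edgeR adjusted p = 0.759). Without labelled-deleted tumour 1 it was -0.53 (SE 0.12), with an adjusted p of 0.906. Fbn2, fibrillin 2, a microfibril protein best known from development, had 22.2, 96.9, 93.4, 124 and 88.7 CPM in labelled-deleted tumours 1 to 5, against 118, 119, 176, 205 and 166 CPM in wild-type tumours 1 to 5. Labelled-deleted tumour 4 alone of its group reached above the lowest wild-type tumours, and the log2 fold change was -0.88 (SE 0.37), or -0.64 (SE 0.18) without labelled-deleted tumour 1. Fbn1, the main fibrillin, differed less, with 481 to 615 CPM in labelled-deleted tumours and 457 to 661 CPM in wild-type tumours and a log2 fold change of -0.21 (SE 0.12), or -0.18 (SE 0.12) without labelled-deleted tumour 1. Exons of another gene on the opposite strand cover 20.1% of the exonic bases of Fbn1.

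Ltbp1, a latent TGF-beta binding protein, had 462, 146, 79.3, 205 and 88.4 CPM in labelled-deleted tumours 1 to 5, against 84.2, 166, 91.6, 77.6 and 70.2 CPM in wild-type tumours 1 to 5. Labelled-deleted tumour 1 was the highest, followed by labelled-deleted tumour 4 and wild-type tumour 2, and the log2 fold change of 1.00 (SE 0.48) was 0.41 (SE 0.33) without labelled-deleted tumour 1. The related Ltbp2 had its lowest value in that same tumour, with 65.2 to 255 CPM in labelled-deleted tumours and 203 to 454 CPM in wild-type tumours and a log2 fold change of -0.56 (SE 0.35), or -0.34 (SE 0.23) without it. Ltbp3 kept to 288 to 351 CPM in labelled-deleted tumours and 263 to 398 CPM in wild-type tumours, with a log2 fold change of -0.026 (SE 0.12), or -0.033 (SE 0.13) without it. Elastin (Eln) ran from 69.4 to 516 CPM in labelled-deleted tumours and 162 to 689 CPM in wild-type tumours, with a log2 fold change of -0.16 (SE 0.53), which became 0.10 (SE 0.42) when labelled-deleted tumour 1 was left out. Mfap4, which binds elastin, ran from 13.7 to 112 CPM in labelled-deleted tumours and 24.7 to 147 CPM in wild-type tumours, with -0.58 (SE 0.58), or -0.35 (SE 0.56) when that tumour was left out. Without labelled-deleted tumour 3, Eln stood at -0.39 and Mfap4 at -1.23. The groups overlapped for each of these genes. Mfap2, the companion of Mfap5 in microfibrils, had a log2 fold change of -0.078 (SE 0.26), or -0.17 (SE 0.28) without labelled-deleted tumour 1.

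The fibulins and Emilin1 had log2 fold changes between -0.26 and 0.23. Fbln2 had 909.8 to 1839 CPM in labelled-deleted tumours and 907 to 1582 CPM in wild-type tumours, a log2 fold change of 0.23 (SE 0.21), or 0.23 (SE 0.23) without labelled-deleted tumour 1. The log2 fold changes were -0.14 (SE 0.25) for Fbln1 and -0.15 (SE 0.35) for Fbln5, which is needed for elastic fibre assembly in mice. Fbln5 was lowest in labelled-deleted tumour 1 at 8.01 CPM, and leaving that tumour out gave 0.069 (SE 0.22) for Fbln5 and -0.081 (SE 0.27) for Fbln1. Efemp1 stood at 0.014 (SE 0.26) and Efemp2, which recruits lysyl oxidase to elastic fibres, at -0.26 (SE 0.13). Efemp2 ran from 64.1 to 92.2 CPM in labelled-deleted tumours and 77.1 to 111 CPM in wild-type tumours, so the groups overlapped. Emilin1, an elastin-associated glycoprotein, stood at -0.18 (SE 0.21). Leaving out labelled-deleted tumour 1 gave -0.023 (SE 0.29) for Efemp1, -0.18 (SE 0.11) for Efemp2 and -0.093 (SE 0.21) for Emilin1.

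**Figure D4:**
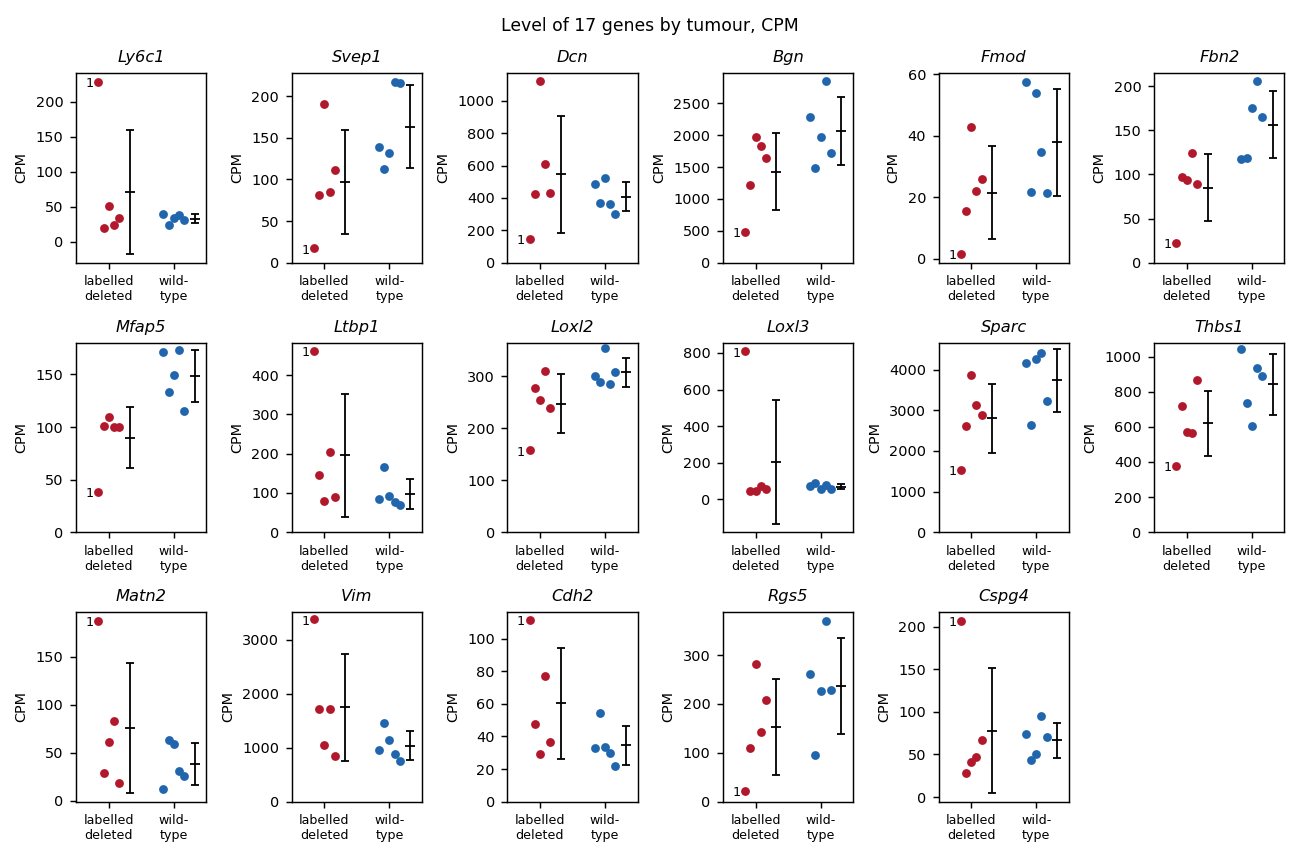
Level in CPM of 17 genes in each labelled-deleted tumour (red) and wild-type tumour (blue), with the mean and SD of each group in black and labelled-deleted tumour 1 marked with its number. In Mfap5 the red points end at 109 CPM, below the lowest blue point at 115 CPM, and in Loxl3, Ly6c1 and Cspg4 the marked tumour stands alone above all others.

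Of the 5 genes of crosslinking and collagen processing, 2 had a positive and 3 a negative log2 fold change, and none passed the test. The lysyl oxidases split in labelled-deleted tumour 1. Loxl2, which crosslinks collagen IV and fibrillar collagens, had 157, 276, 254, 309 and 238 CPM in labelled-deleted tumours 1 to 5, against 299, 289, 354, 285 and 308 CPM in wild-type tumours 1 to 5. It was lowest in labelled-deleted tumour 1, the groups overlapped, and the log2 fold change was -0.31 (SE 0.16), or -0.19 (SE 0.10) without that tumour. Loxl3 had 809, 46.1, 47.5, 70.7 and 54.4 CPM in labelled-deleted tumours 1 to 5, against 74.0, 87.4, 54.7, 77.4 and 58.7 CPM in wild-type tumours 1 to 5. The other 9 tumours lay together, and the log2 fold change of 1.54 (SE 0.84) turned to -0.37 (SE 0.17) without labelled-deleted tumour 1. Exons of Htra2 on the opposite strand cover 11.6% of the exonic bases of Loxl3, and Htra2 stood at 50.3 CPM in that tumour against 39.7 to 52.5 CPM in wild-type tumours. Lox, the founding member, was lowest in labelled-deleted tumour 1 at 150.3 CPM and had a log2 fold change of -0.29 (SE 0.19), or -0.14 (SE 0.11) without it. Loxl1, which is needed for elastic fibre renewal in mice, was lowest there too, at 169.9 CPM, with -0.38 (SE 0.22), or -0.26 (SE 0.19) without it. None of these 4 lysyl oxidases separated the groups. Pcolce, which enhances the cutting of procollagen, was highest there at 360.1 CPM, with 0.32 (SE 0.26), or 0.12 (SE 0.23) without it.

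The 7 matricellular, adhesive and basement membrane genes had 3 positive and 4 negative log2 fold changes and no gene past the test. Thbs1, thrombospondin 1, which can activate latent TGF-beta, had 377, 721, 571, 564 and 865 CPM in labelled-deleted tumours 1 to 5, against 1046, 734, 602, 938 and 889 CPM in wild-type tumours 1 to 5. The groups overlapped, and the log2 fold change was -0.44 (SE 0.22), or -0.31 (SE 0.18) without labelled-deleted tumour 1. Sparc had 1528, 2603, 3869, 3132 and 2888 CPM in labelled-deleted tumours 1 to 5, against 4173, 2639.9, 4259, 4406 and 3222 CPM in wild-type tumours 1 to 5. Labelled-deleted tumour 1 was the lowest and the groups overlapped, with a log2 fold change of -0.42 (SE 0.24), or -0.26 (SE 0.17) without that tumour. Matn2, matrilin 2, a filament-forming adaptor protein, had 187, 29.1, 60.9, 82.8 and 18.2 CPM in labelled-deleted tumours 1 to 5, against 12.2, 63.6, 59.0, 31.6 and 25.7 CPM in wild-type tumours 1 to 5. It varied widely in both groups, with its lowest value in wild-type tumour 1 and its highest in labelled-deleted tumour 1, and the log2 fold change was 0.98 (SE 0.63), or 0.32 (SE 0.55) without the highest tumour.

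Fn1 was at 7782 ± 1769 CPM in labelled-deleted tumours and 8121 ± 1019 CPM in wild-type tumours (SD, n = 5 each), a log2 fold change of -0.062 (SE 0.17), or -0.038 (SE 0.18) without labelled-deleted tumour 1. Sparcl1, a relative of Sparc, had a log2 fold change of 0.35 (SE 0.24), or 0.43 (SE 0.24) without it. The nidogens, which link laminin to collagen IV in basement membranes, split in labelled-deleted tumour 1: Nid1 was highest there at 909 CPM and Nid2 lowest at 13.8 CPM. Their log2 fold changes were 0.26 (SE 0.23) and -0.47 (SE 0.35), and without that tumour 0.0053 (SE 0.15) and -0.24 (SE 0.22).

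The 4 genes of the filament, cadherin and receptor group had 3 positive and 1 negative log2 fold changes, none past the test, with a median of 0.56 that was 0.26 without labelled-deleted tumour 1. Vim, the intermediate filament vimentin, had 3376, 1724, 1057, 1714 and 852 CPM in labelled-deleted tumours 1 to 5, against 959, 1455, 1140.4, 887 and 758 CPM in wild-type tumours 1 to 5. Labelled-deleted tumours 1, 2 and 4 lay above all wild-type tumours and labelled-deleted tumours 3 and 5 within their range, and the log2 fold change was 0.75 (SE 0.35), or 0.36 (SE 0.25) without labelled-deleted tumour 1. Cdh2, N-cadherin, had 112, 47.8, 29.0, 77.1 and 36.4 CPM in labelled-deleted tumours 1 to 5, against 32.9, 54.4, 33.7, 29.8 and 21.8 CPM in wild-type tumours 1 to 5. Labelled-deleted tumours 1 and 4 lay above the highest wild-type tumour, and the log2 fold change of 0.81 (SE 0.38) was 0.46 (SE 0.32) without labelled-deleted tumour 1. Cdh11, the cadherin of fibroblasts, ran from 150.1 to 321 CPM in labelled-deleted tumours and 183 to 251 CPM in wild-type tumours, with a log2 fold change of -0.029 (SE 0.21), or -0.23 (SE 0.16) without labelled-deleted tumour 1. Axl, a receptor tyrosine kinase, was highest in labelled-deleted tumour 1 at 888 CPM and had a log2 fold change of 0.38 (SE 0.22), or 0.15 (SE 0.15) without it.

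The 3 genes of mural cells, the pericytes and muscle cells around vessels, did not move together, and none passed the test. Rgs5, a regulator of G protein signalling in pericytes, had 22.3, 110.2, 282, 144 and 208 CPM in labelled-deleted tumours 1 to 5, against 261, 96.3, 226, 370.0 and 228 CPM in wild-type tumours 1 to 5. Labelled-deleted tumour 1 was the lowest and the groups overlapped, with a log2 fold change of -0.62 (SE 0.55), or -0.35 (SE 0.37) without that tumour. Cspg4, the proteoglycan NG2, had 207, 28.5, 40.9, 46.4 and 67.5 CPM in labelled-deleted tumours 1 to 5, against 74.5, 43.0, 50.0, 95.0 and 70.3 CPM in wild-type tumours 1 to 5. Here labelled-deleted tumour 1 was the highest, and the log2 fold change of 0.23 (SE 0.50) turned to -0.54 (SE 0.28) without it. Des, desmin, was highest in labelled-deleted tumour 2 at 163 CPM and lowest in labelled-deleted tumour 1 at 13.3 CPM, against 60.5 to 112 CPM in wild-type tumours, and its log2 fold change was 0.087 (SE 0.49), or 0.36 (SE 0.30) without labelled-deleted tumour 1 and -0.36 without labelled-deleted tumour 2. Labelled-deleted tumour 2 also held the highest sum of smooth muscle and myofibroblast markers, 804 CPM, and the intestinal transcripts, and their part in the desmin value was not tested.

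Whether the genes varied together over tumours was described by the correlation of each of the other 46 with Dcn, over log2 CPM of all 10 tumours. With p-values from permutation tests adjusted over these 46 relations, 0 passed 0.05 by Pearson's r and 0 by Spearman's rho. Pearson's r was positive for 32 and its median was 0.54, against a median rho of 0.20. The largest values were those of Fbln5, with r = 0.88 (permutation p = 0.0022, adjusted 0.0515) and rho = 0.58 (permutation p = 0.0886, adjusted 0.544). Lum, the chromosomal neighbour of Dcn, had r = 0.87 (permutation p = 0.0018, adjusted 0.0515) and rho = 0.72 (permutation p = 0.0238, adjusted 0.502). The most negative were Loxl3, with r = -0.77 (permutation p = 0.0160, adjusted 0.135) and rho = -0.54 (permutation p = 0.113), and Cspg4, with r = -0.73 (permutation p = 0.0269) and rho = -0.56 (permutation p = 0.0945). The tumours farthest from the median of Dcn were labelled-deleted tumours 1 and 3, and without them r was 0.40 for Fbln5, 0.48 for Lum, -0.071 for Loxl3 and -0.30 for Cspg4, with a median of 0.17 over the 46. The 4 relations were weaker without these tumours, whose removal also narrows the range of Dcn. With values centred within each group, 19 of the 46 relations passed, with labelled-deleted tumours 1 and 3 included. The permutations there moved values across groups, although centring ties the values within each group. Correlations with Dcn were computed for the 46 alone, so these counts and medians have no value over all tested genes beside them. Groups of 5 are too small for a correlation of their own, and the labels name no batch.

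**Figure D5:**
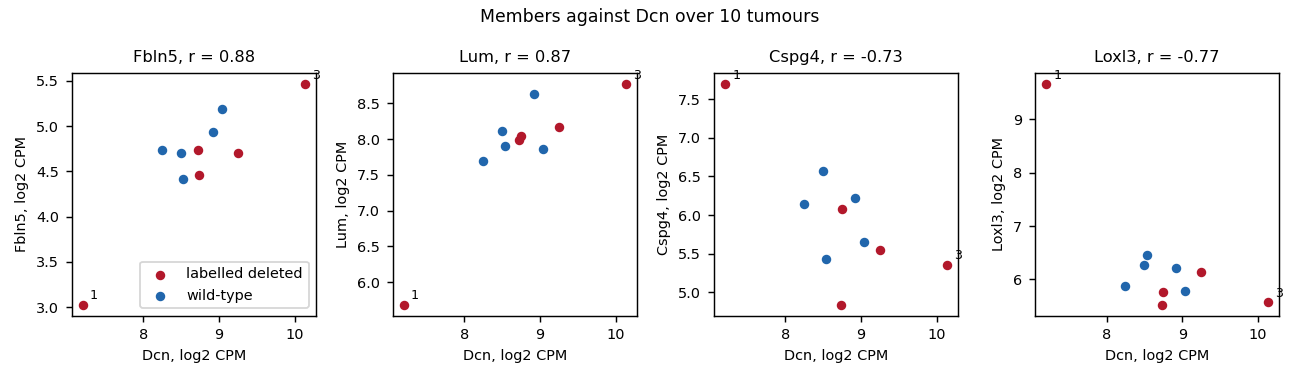
Log2 CPM of Fbln5, Lum, Cspg4 and Loxl3 (vertical axes) against log2 CPM of Dcn (horizontal axes) in the 5 labelled-deleted (red) and 5 wild-type (blue) tumours, with labelled-deleted tumours 1 and 3 numbered. Tumour 1 lies alone at the lowest Dcn value in each panel, and r was 0.88, 0.87, -0.73 and -0.77.

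A list of 58 other non-collagen matrix genes, among them tenascins, thrombospondins, spondins and further proteoglycans, was set beside the 47. Of these 49 were tested, 0 passed, 24 had a positive and 25 a negative log2 fold change, and the median was -0.0057, against 0.027 over all tested genes. Labelled-deleted tumour 1 was lowest in 22 and highest in 9 of the 49. In 3 of them, Thbs2, Abi3bp and Tnc, all 5 labelled-deleted tumours lay below all 5 wild-type tumours, as in 0.435% of all tested genes. Thbs2, thrombospondin 2, a relative of Thbs1, had 269.9, 277, 214, 262 and 304 CPM in labelled-deleted tumours 1 to 5, against 487, 323, 324, 351 and 350.4 CPM in wild-type tumours 1 to 5. Its log2 fold change was -0.47 (SE 0.14) (edgeR adjusted p = 0.759), and -0.47 (SE 0.15) without labelled-deleted tumour 1, which was not the lowest of its group. Abi3bp, a collagen-binding matrix protein, had 19.5, 58.2, 109, 113 and 106 CPM in labelled-deleted tumours 1 to 5, against 150.3, 125, 159.8, 254 and 129 CPM in wild-type tumours 1 to 5, a log2 fold change of -1.02 (SE 0.42), and leaving out labelled-deleted tumour 1 gave -0.77 (SE 0.26). Tnn, tenascin N, held 85.2 CPM in labelled-deleted tumour 1 and at most 2.98 CPM in the other 9, and its log2 fold change of 3.87 (SE 1.30) was 0.64 (SE 0.33) without that tumour.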

How the data were processed

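The authors deposited estimated counts per gene for 10 libraries in 1 table, of which 7.96% of values were not whole, and normalized log2 values per tumour, whose transformation is not named. The submitters' processing notes list HISAT2 2.2.1, RSEM 1.3.3, DESeq2 1.32.0, FastQC 0.11.9 and bcl2fastq 2.0, with mm10 as build. The sources used here do not give the annotation release or the strand setting. The library kit was KAPA mRNA HyperPrep, per the labels' protocols. The column of labelled-deleted tumour 1 lacks the number that the tumour ID in its title carries.

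Estimated counts were rounded. Genes were filtered with filterByExpr (minimum count 10), scaled by trimmed mean of M values and compared, 5 against 5, with edgeR 4.0.16 (quasi-likelihood, robust), with Benjamini-Hochberg adjustment over 16565 genes at 0.05. The SE is the log2 fold change divided by the root of F. The p-values measure the spread between tumours (common biological coefficient of variation 0.355). Log2 CPM has a prior count of 2. Correlations used 100000 permutations, or all 40320 with 8 tumours, two-sided. Exonic lengths came from GENCODE M21 (GRCm38), which holds 55141 of the 55487 identifiers. Every pair of libraries within a group differed by more than sampling noise (lowest chi-square per degree of freedom 25.6). The edgeR and correlation steps were tested on simulated data. These held no outlying tumour such as labelled-deleted tumour 1, so they cannot show how the steps behave with it. Versions were Python 3.11.15, matplotlib 3.10.9, DESeq2 1.42.0, limma 3.58.1 and R 4.3.3.

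The genes and lists were chosen with earlier results of these data known. Values in every tumour are given for Dcn, the 2 genes with the smallest p in each role, the 5 largest log2 fold changes in each direction, and genes whose groups do not overlap, and for the 3 other matrix genes with the smallest p. Pdgfra was chosen after its values were seen.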

Additional observations from a re-analysis of the deposited data

Results flagged for a closer look

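In 17 genes and 2 groups of 5, the gap between the most extreme tumour and its nearest neighbour, as a share of the group's range, was compared with Dixon's critical value of 0.71. Of 34 such groups 5 exceeded it, and 4 of the 5 were labelled-deleted tumour 1. For normally distributed values chance alone exceeds it in about 1 in 20 groups, while unlogged CPM was used here. The 17 genes were also picked for fold change, p and overlap in the same tumours. Their rate therefore cannot be set against that one. That tumour held 809 CPM of Loxl3 against 46.1 to 70.7 CPM in the other labelled-deleted tumours. It held 229 CPM of Ly6c1 against 19.4 to 50.6 CPM, and 207 CPM of Cspg4 against 28.5 to 67.5 CPM. For Mfap5 it was the lowest, at 38.17 CPM against 100.2 to 109 CPM. In the wild-type group, tumour 2 held 166 CPM of Ltbp1 against 70.2 to 91.6 CPM in the other wild-type tumours.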

How the results depend on the processing

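Under 18 alternatives (DESeq2, limma-voom, other scalings, no low-count filter, a replicate block, the deposited log2 values with limma, and each tumour or labelled-deleted tumours 1 and 2 left out) 0 of the 47 genes passed, with a lowest adjusted p of 0.507. Over all genes the count was 0 in each alternative but DESeq2, which called 7. The median log2 fold change of the 47 ran from -0.34 to -0.022, and from -0.34 to -0.091 with 1 tumour left out. In 27 of the 47 genes the sign was the same in all 18 (8 positive, 19 negative). Signs turned for Cspg4 under limma-voom (-0.13), the replicate block (-0.12) and the deposited log2 values (-0.058), as they did for Clec3b, Des and Efemp1. Without labelled-deleted tumours 1 and 2, Cspg4 was at -0.37 and Loxl3 at -0.29. With 1 tumour left out, Cspg4 ran from -0.54 to 0.44, Loxl3 from -0.37 to 1.80 and Ly6c1 from -0.062 to 1.34, each lowest without labelled-deleted tumour 1, and Dcn ran from -0.032 to 0.66, lowest without labelled-deleted tumour 3. The median of the mural cell genes was -0.35 without labelled-deleted tumour 1, a fit by role chosen after seeing the data. The number of correlations with Dcn that passed was 0, with 2 without scaling beyond library size, 19 with values centred within groups, and 0 to 2 with 1 tumour left out, the 2 without wild-type tumour 5. No such count was made over all tested genes, and the cause of these differences was not tested.

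The labels number the tumours 1 to 5 in both groups and state no pairing. Deviations of same-numbered tumours correlated between -0.0157 and 0.387, with 3 of 5 over 0.1 and the closest wild-type tumour of the same number for tumours 3 and 5. As not every pair was over 0.1, the tumours were treated as sharing only a number, and with the replicate block 0 genes passed. For labelled-deleted tumours 2, 3 and 5 the closest wild-type tumours were 1, 3 and 5, which share the leading number of their tumour ID. Labelled-deleted tumours 1 and 4 share theirs with no other tumour. The sources used here do not say what that number stands for, and no fit used it. Clec3b and Ogn had under 10 counts in labelled-deleted tumour 1, so ratios against that tumour are imprecise, and for the other 45 genes the spread between tumours limited the precision.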
